A study of Mus musculus with 8 samples.

Results

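The tripartite motif (TRIM) genes encode one of the large families of RING-type ubiquitin ligases. In this report the family was taken as every row of the deposited gene table whose name is Trim followed by a digit. The pattern matched 41 rows, of which 1 was left out by the rule, so that 40 of 12823 rows were members. Of these 40 genes, 39 reached at least 1 CPM, the count scaled to a common library total, in 4 or more of the 8 libraries and were tested, and Trim30c fell below that limit. The annotation of the mouse genome build GRCm38 (GENCODE M21) names 67 protein-coding genes of this pattern, and those without a row were not analysed here.

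RNA was measured in acute myeloid leukemia (AML) cells that carry MLL-AF9, a fusion oncogene, together with GFP. The 4 libraries of new AML hold leukemia made by transducing mouse bone marrow progenitors and transplanting them into irradiated mice. The 4 aggressive AML libraries hold cells passed on by 5 serial transplantations through mice that were not irradiated. The study derived these cells from the newly generated leukemia and gives male mice for both groups. In both groups the leukemia cells were grown in C57BL/6 mice, taken from the bone marrow and sorted as GFP+ cells, so that every library carries the fusion gene and GFP and there is no library of untransformed cells. The comparison asks how the aggressive leukemia differs from the newly generated one. The labels call the libraries biological replicates without naming separate animals, and p-values measure the spread between these libraries. They need not cover the spread between separately passaged leukemias.

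The libraries held 7805544 to 9697777 counts, so that 1 count was worth 0.103 to 0.130 CPM. Hoxa9 and Meis1, targets of the fusion protein, and Itgam, Mpo, Kit and Csf1r, myeloid genes, were all in the table, and the summed level of the 7 leukemia and myeloid markers was 3589 to 4218 CPM in new AML and 2989 to 4074 CPM in aggressive AML. Most of that sum was Mpo, and single markers moved apart: Csf1r (-1.70, edgeR adjusted p = 3.76e-07) and Itgam (-0.61, adjusted p = 0.00122) were lower and Kit (0.65, adjusted p = 0.0014) and Meis1 (0.45, adjusted p = 0.0117) higher in aggressive AML on the log2 scale, while Hoxa9, Mpo and Ptprc did not pass the test. Of the 6 T cell markers, none had a row, and rows existed for 3 of 5 B cell markers and 1 of 5 NK cell markers. The 8 neutrophil markers summed to 297.8 to 441.2 CPM in new AML and 147.1 to 196.5 CPM in aggressive AML. Of these 8, 6 were lower (75%, beside 10.2% of all tested genes). Macrophage markers (5 of 8 in the table) summed to 82.9 to 145.6 and 56.0 to 90.8 CPM, erythroid markers (12 of 12) to 24.6 to 72.8 and 7.42 to 32.5 CPM, and plasmacytoid dendritic cell markers (2 of 4) to 7.61 to 12.9 and 1.57 to 7.07 CPM. The part of such cells in the TRIM values below was not tested, and in bulk RNA fewer cells of a type and less RNA per cell cannot be told apart. The 4 Y-linked genes in the table summed to 2315 to 2574 counts in each new AML library and to 0 in each aggressive AML library, so that the groups also differ in the Y-linked RNA of their cells, and that difference and the passage history cannot be told apart.

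TRIM proteins begin with a RING finger, B-box zinc fingers and a coiled coil, and differ in the domain that follows. The RING finger takes ubiquitin from an E2 enzyme, and the final domain, most often a PRY-SPRY domain, binds the target. Many PRY-SPRY members act in the sensing of viral RNA and DNA or block viruses directly, and their genes are induced by interferon through the interferon-stimulated response element (ISRE). Other members act at chromatin, at microtubules, in autophagy or in the turnover of single proteins.

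Of the 39 tested genes, 9 were lower and 2 were higher in aggressive AML at an adjusted p under 0.05 (edgeR quasi-likelihood test, Benjamini-Hochberg adjustment over all 12494 tested genes). That is 28.2% of the TRIM genes, beside 18.4% of all tested genes. The lower genes made up 23.1% of the family, beside 10.2% of all genes, and the higher genes 5.13%, beside 8.15%. At an unadjusted p under 0.05 there were 17 TRIM genes, beside 32.6% of all genes. The libraries of the groups did not overlap for 9 tested TRIM genes that were lower and 3 that were higher, beside 12.0% and 9.76% of all tested genes, or 21.8% in either direction. The median log2 fold change (aggressive over new AML) was -0.13 over the family and 0.00 over all genes, and 24 TRIM genes lay below 0, beside 49.9% of all genes. Of the family's summed level, the 9 lower genes held 29.2% ± 1.70 (SD, n = 4) in new AML and 20.9% ± 1.10 in aggressive AML. They were picked as lower in these same libraries, so a drop in their share follows from the choice and is not a separate result. The sum over all 40 genes was 1864 ± 32.8 CPM in new AML and 1634 ± 48.6 CPM in aggressive AML.

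**Figure D1:**
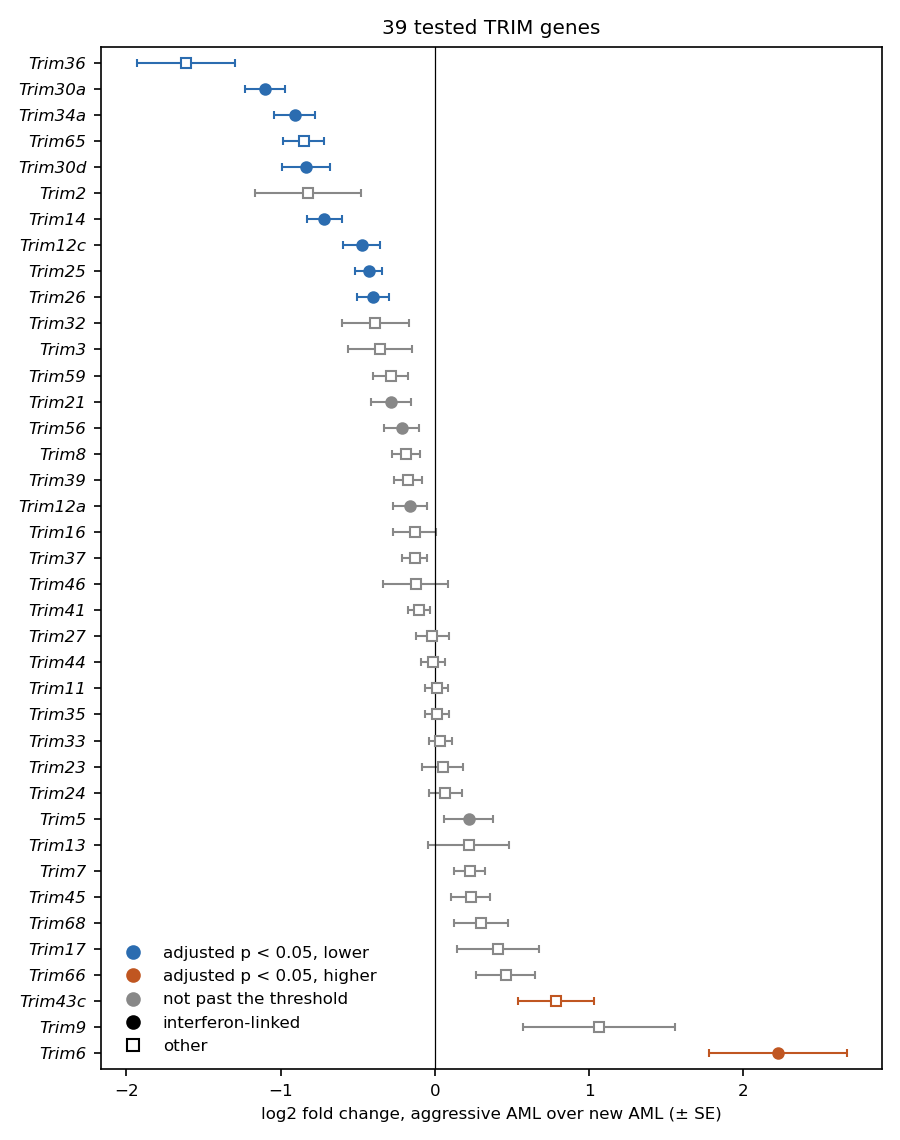
Log2 fold change of each of the 39 tested TRIM genes, aggressive AML over new AML, with bars of 1 standard error. Blue marks the 9 genes lower and orange the 2 genes higher at an adjusted p under 0.05, filled circles the interferon-linked genes and open squares the others; 7 of the 9 blue markers are filled circles.

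The calls gathered among the members listed as interferon-linked from general knowledge. Of 12 such genes tested, 7 were lower and 1 was higher (Trim6), with a median log2 fold change of -0.42. That is 66.7% called, beside 18.4% of all tested genes. Of the other 27, 2 were lower (Trim36 and Trim65) and 1 was higher (Trim43c), or 11.1% called, with a median of -0.01. By domain, 25 tested members carry a SPRY domain, and all 11 called genes are among them. Of the 14 tested members without one, edgeR called 0 at an adjusted p under 0.05 and 3 at an unadjusted p under 0.05, DESeq2 called 0, limma called 0 and limma with voom and library quality weights called 1. Without aggressive AML replicate 4, edgeR called 2 of these 14, Trim2 and Trim59. The interferon-linked and the SPRY genes are largely the same genes, since all but Trim56 of the interferon-linked set carry SPRY. Of the 14 tested SPRY genes that are not interferon-linked, 3 were called, beside 18.4% of all tested genes. The family was proposed with results of these data in view, and these counts describe it and are not a test of either feature.

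The gene with the smallest adjusted p was Trim30a, an interferon-induced rodent TRIM that restrains NF-kB signalling from Toll-like receptors. It lies at chr7:104409025-104465193 on the minus strand. Its level was 96.3, 88.3, 139.3 and 111.5 CPM in new AML replicates 1 to 4 and 47.3, 50.9, 45.4 and 58.9 CPM in aggressive AML replicates 1 to 4. Every aggressive library lay below every new one, and new AML replicate 3 was the highest. The mean moved from 108.8 ± 22.5 CPM to 50.6 ± 6.00 CPM (SD, n = 4), or by -1.10 on the log2 scale (SE 0.13, edgeR adjusted p = 4.25e-05).

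Trim30d is a neighbouring copy of Trim30a, at chr7:104470014-104507849 on the same strand, and 7.49% of the 50-base words of its transcripts are shared with those of another gene. It measured 25.04, 24.8, 33.5 and 31.8 CPM in new AML and 13.6, 14.7, 15.03 and 21.1 CPM in aggressive AML. The groups did not overlap, with aggressive AML replicate 4 the highest of its group. The log2 fold change was -0.83 (SE 0.16, adjusted p = 0.00168, edgeR), and the means were 28.8 ± 4.48 and 16.1 ± 3.35 CPM. Trim30c, the remaining copy with a row, had 11, 3, 28 and 16 counts in new AML and 1, 1, 0 and 3 counts in aggressive AML. The highest aggressive library thus equalled the lowest new library in counts, and in CPM lay just below it (0.341 and 0.357). Trim30c was not tested in the main fit. With no filter on low counts, its log2 fold change was -3.30 (edgeR adjusted p = 0.00739), from these few counts. The 3 Trim30 genes summed to 139.2 ± 27.8 CPM in new AML and 66.9 ± 9.28 CPM in aggressive AML.

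Trim34a, a further interferon-induced PRY-SPRY gene, lies at chr7:104244457-104262234 on the plus strand. Its libraries read 25.5, 20.6, 28.3 and 25.6 CPM in new AML and 12.6, 12.5, 14.6 and 13.5 CPM in aggressive AML. The aggressive libraries were close together and all below the new ones, and the means of 24.995 ± 3.23 and 13.3 ± 0.990 CPM gave a log2 fold change of -0.91 (SE 0.13, edgeR adjusted p = 0.000233). Of its 50-base words, 39.8% are shared with other genes, chiefly Trim34b, which has no row, and 23.5% of its exon length overlaps an antisense gene. Its reads may therefore include those of a copy.

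Trim12c and its neighbours Trim12a and Trim5 are the mouse relatives of human TRIM5, a factor that blocks retroviral capsids. Trim12c measured 58.2, 64.2, 77.1 and 82.4 CPM in new AML and 48.2, 49.0, 45.6 and 59.9 CPM in aggressive AML. Here the groups overlapped, since aggressive AML replicate 4 lay above new AML replicate 1. On the log2 scale the change was -0.47 (SE 0.12, adjusted p = 0.0126, edgeR), with means of 70.5 ± 11.2 and 50.7 ± 6.29 CPM. Trim12a (41.3 ± 5.50 and 37.0 ± 1.74 CPM, log2 fold change -0.16, adjusted p = 0.328) and Trim5 (19.8 ± 3.75 and 23.0 ± 4.18 CPM, 0.22, adjusted p = 0.360) did not pass the test. These copies share sequence: 33.0% of the 50-base words of Trim12c, 36.3% of those of Trim5 and 10.4% of those of Trim12a recur in other genes, so reads may be split among them.

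Trim6, whose protein builds free ubiquitin chains that activate the kinase IKK-epsilon in interferon signalling, went the other way. It measured 1.64, 1.90, 2.01 and 1.56 CPM in new AML and 5.30, 5.89, 18.7 and 3.75 CPM in aggressive AML, from 14 to 18 counts and from 33 to 144 counts. All 4 aggressive libraries lay above all 4 new ones, and replicate 3 stood far above the other aggressive libraries. The log2 fold change was 2.22 (SE 0.45, adjusted p = 0.0029, edgeR), with means of 1.78 ± 0.211 and 8.40 ± 6.90 CPM, and it was 1.48 without aggressive AML replicate 3, a drop in fold of over 1.5 times in which the call held.

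These genes lie side by side. From Trim6 to Trim30d, 8 members occupy 289 kb of chromosome 7 (104218793 to 104507849), in the order Trim6, Trim34a, Trim5, Trim12a, Trim12c, Trim30c, Trim30a and Trim30d. Of the 7 tested, 4 were lower (57.1%) and 1 was higher (14.3%), beside 10.2% and 8.15% of all tested genes. Their median log2 fold change was -0.47. Trim6, at one end, rose while its neighbour Trim34a fell. Elsewhere on chromosome 7, Trim21, Trim68, Trim3 and Trim66 were tested and not called. Outside chromosome 7, 5 of 28 tested members were lower (17.9%) and 1 was higher (3.57%). The rows that flank the group, Dnajc19-ps before it (32.4 and 40.7 CPM, 0.33, edgeR adjusted p = 0.0640) and Gm4887 after it (2.397 and 3.49 CPM, 0.54, adjusted p = 0.241), did not pass the test. The next tested rows farther out lay below 0 and did not pass either. They were Hbb-bs (-1.09, edgeR adjusted p = 0.0990) and Hbb-bt (-1.28, adjusted p = 0.0738) before the group and Fam160a2 (-0.28, adjusted p = 0.241) after it. Cnga4, which follows Fam160a2, measured 0.748 CPM in new AML and 1.28 CPM in aggressive AML and was not tested.

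**Figure D2:**
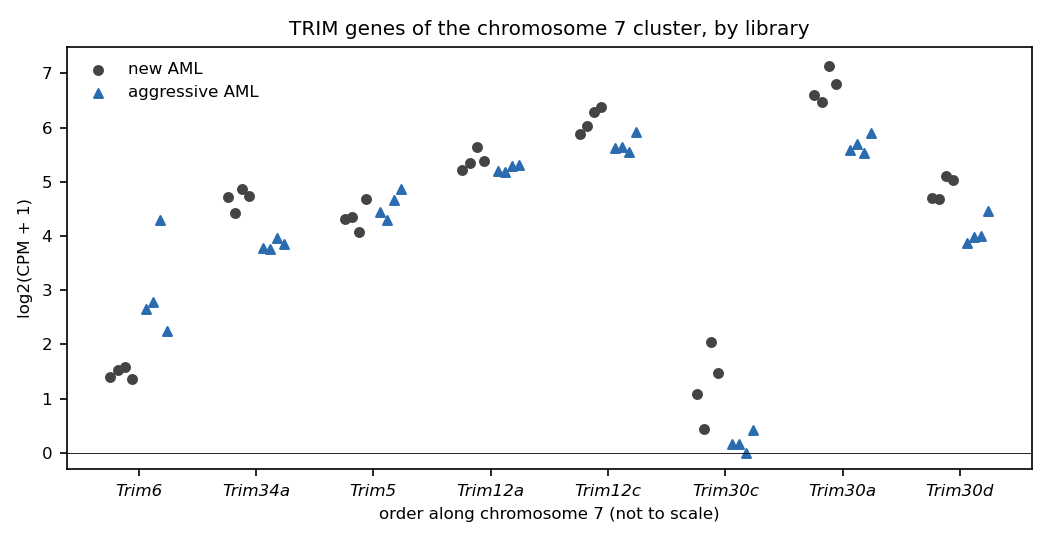
Levels of the 8 TRIM genes of the chromosome 7 group by library, as log2(CPM + 1), in genome order and not to scale, with new AML replicates 1 to 4 as dark circles and aggressive AML replicates 1 to 4 as blue triangles. Trim6 is higher in every aggressive library, Trim34a, Trim30a and Trim30d are lower in every one, and Trim5 and Trim12a overlap between groups.

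Because interferon acts on such genes through the ISRE, the promoter windows of RefSeq (GRCm38.p6, 250 bases before to 50 after the start site) were searched for its letters (GAAA, any pair of bases, GAAA) on both strands. Of 29 members with a window, 9 held the letters (31.0%), beside 3.44% of all 32851 windows and 3.75% of the tested genes with a window. They occurred in 5 of the 6 lower genes that have a window (Trim30a, Trim30d, Trim34a, Trim12c and Trim26, but not Trim25), in 4 of 21 uncalled genes (Trim2, Trim21, Trim5 and Trim12a) and not in Trim6. Trim14, Trim65 and Trim36 have no window in the table. The letters of another interferon element, GAS (TTCNNNGAA, N being any base), were searched in the same way. They occurred in 3 of the 29 members (10.3%), beside 8.15% of the tested genes with a window, and in 0 of the 6 lower genes. The windows of the chromosome 7 copies are related by descent and are not independent cases: over a 70-base stretch Trim30a and Trim30d share 69 bases, and Trim5 and Trim12c share 67. The stretches below show the ISRE match in capitals, in the direction of each gene, for called genes and for the copies that did not pass the test.
Trim30a, chr7:104465190-104465259, minus strand: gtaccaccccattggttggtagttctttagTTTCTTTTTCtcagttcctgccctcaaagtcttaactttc
Trim30d, chr7:104507851-104507920, minus strand: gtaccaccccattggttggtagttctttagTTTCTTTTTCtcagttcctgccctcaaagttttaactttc
Trim12c, chr7:104353339-104353408, minus strand: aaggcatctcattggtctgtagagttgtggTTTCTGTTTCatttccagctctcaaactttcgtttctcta
Trim5, chr7:104288116-104288185, minus strand: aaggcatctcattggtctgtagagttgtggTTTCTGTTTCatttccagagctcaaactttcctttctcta
Trim12a, chr7:104315466-104315495, minus strand: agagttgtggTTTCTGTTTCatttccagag
Trim34a, chr7:104244457-104244486, plus strand: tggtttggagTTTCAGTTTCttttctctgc
Trim26, chr17:36836956-36837031, plus strand: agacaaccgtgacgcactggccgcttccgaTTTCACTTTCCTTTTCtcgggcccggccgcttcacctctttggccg

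Trim12c, which was called, and Trim5, which was not, carry the same 10 letters in nearly the same surroundings, as does Trim12a. The match in Trim26 is a pair of overlapping matches. A match is a description of these letters and not a bound site.

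Trim14 encodes a TRIM protein without a RING finger that serves as an adaptor of the mitochondrial antiviral protein MAVS. It lies at chr4:46493781-46536141 on the minus strand and measured 115.6, 118.6, 103.3 and 110.7 CPM in new AML and 72.5, 75.3, 50.7 and 74.1 CPM in aggressive AML. All aggressive libraries were below all new ones, with aggressive AML replicate 3 the lowest. The mean went from 112.0 ± 6.70 to 68.1 ± 11.7 CPM, which is -0.72 on the log2 scale (SE 0.11, edgeR adjusted p = 0.000418). Its exons share 1356 bases (31.3% of their length) with Nans on the opposite strand, and whether strand was used in counting was not stated. Nans had a log2 fold change of -0.00 (142.2 and 141.7 CPM, edgeR adjusted p = 0.977). The part of Nans reads in the Trim14 values was not tested.

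Trim25 encodes the ligase that places ubiquitin on the viral RNA sensor RIG-I and can also transfer the ubiquitin-like protein ISG15. Its libraries read 150.6, 130.3, 137.6 and 139.4 CPM in new AML and 95.9, 115.0, 94.6 and 108.7 CPM in aggressive AML. The groups did not overlap. The means of 139.5 ± 8.38 and 103.5 ± 9.93 CPM gave a log2 fold change of -0.43 (SE 0.08, edgeR adjusted p = 0.00255).

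Trim65 encodes a ligase for MDA5, another sensor of viral RNA, and was not among the genes listed as interferon-linked. It measured 18.4, 20.4, 17.4 and 20.2 CPM in new AML and 9.76, 9.78, 11.5 and 11.3 CPM in aggressive AML. The groups lay well apart, with means of 19.1 ± 1.46 and 10.6 ± 0.948 CPM and a log2 fold change of -0.85 (SE 0.14, edgeR adjusted p = 0.000503).

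Trim26 encodes a ligase that acts on the interferon regulatory factor IRF3. Its level was 35.4, 37.0, 38.0 and 38.1 CPM in new AML and 27.6, 27.7, 32.1 and 25.1 CPM in aggressive AML, again without overlap. The log2 fold change was -0.40 (SE 0.10, adjusted p = 0.0147, edgeR), from 37.1 ± 1.26 to 28.1 ± 2.91 CPM.

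Trim36 encodes a microtubule-associated TRIM protein and had the largest drop on the log2 scale among the 39 tested members, at a low level. Its counts were 47, 32, 37 and 39 in new AML and 6, 12, 17 and 11 in aggressive AML, or 4.28 ± 0.428 and 1.40 ± 0.612 CPM. No aggressive library reached the lowest new one, and the log2 fold change was -1.61 (SE 0.32, adjusted p = 0.00252, edgeR).

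Trim43c belongs to a small mouse gene group known from the cleavage-stage embryo. It measured 3.80, 6.18, 6.69 and 5.35 CPM in new AML and 7.59, 7.42, 8.81 and 13.996 CPM in aggressive AML. The groups did not overlap, but aggressive AML replicate 4 lay far above its group. The means were 5.51 ± 1.27 and 9.45 ± 3.09 CPM, and the log2 fold change of 0.79 (SE 0.25, adjusted p = 0.0369, edgeR) fell to 0.54 without that library (adjusted p = 0.122). The call was also lost without new AML replicate 1 (adjusted p = 0.108), 2 (0.0619) or 4 (0.0826). In addition, 38.6% of its exon length overlaps 9330159M07Rik on the opposite strand, which had a log2 fold change of 0.81 (adjusted p = 0.00546), and 42.1% of its 50-base words recur in other genes.

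**Figure D3:**
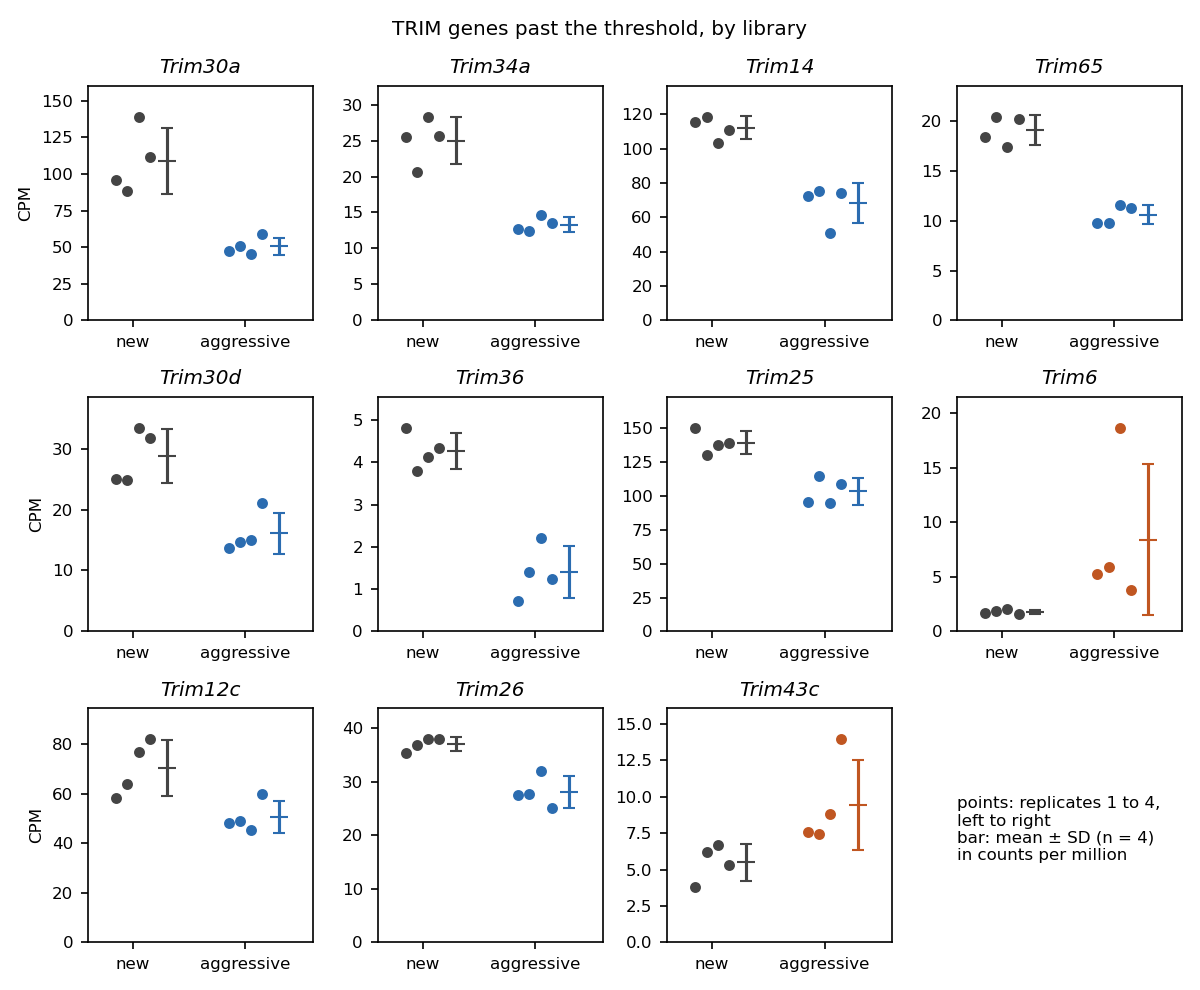
Level in CPM of the 11 TRIM genes past the threshold, 1 panel per gene with its own axis from 0, with points for replicates 1 to 4 of each group and bars for the mean ± SD (n = 4). The 9 lower genes are blue and the 2 higher genes orange in aggressive AML; Trim12c alone shows overlapping groups, and 1 high library stands out in Trim6 and in Trim43c.

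The 4 uncalled genes of highest level were close to equal between the groups. Trim27, which acts with the retromer in endosomal sorting, measured 153.3, 120.4, 122.0 and 111.8 CPM in new AML and 134.6, 136.9, 104.6 and 125.5 CPM in aggressive AML (log2 fold change -0.02, SE 0.11, adjusted p = 0.930). Trim44, which has a ubiquitin-specific-protease-like zinc finger in place of the RING, measured 124.4, 130.4, 111.1 and 120.5 CPM and then 111.9, 120.3, 124.8 and 124.5 CPM (-0.01, SE 0.08, adjusted p = 0.916). In both genes the groups overlapped widely. Trim11 measured 110.6, 113.7, 106.7 and 109.4 CPM in new AML and 114.0, 110.0, 103.4 and 116.5 CPM in aggressive AML (0.01, SE 0.07, adjusted p = 0.932). Trim35 measured 104.2, 91.3, 89.8 and 96.2 CPM and then 101.1, 98.0, 90.7 and 95.7 CPM (0.01, SE 0.08, adjusted p = 0.916).

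Per length, as CPM per kilobase of exon over all 8 libraries, Trim11 (30.9), Trim41 (25.8), Trim59 (24.6), Trim27 (22.9), Trim44 (21.4) and Trim25 (21.1) were the highest members, followed by Trim14 and Trim35 at 20.8 each and Trim30a at 19.4. Trim30a stood at 26.5 in new AML and 12.3 in aggressive AML.

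The remaining interferon-linked members gave values on the same side but did not pass the test, other than Trim5. Trim21, a cytosolic receptor for antibodies, measured 29.5 ± 3.75 and 24.3 ± 3.04 CPM (log2 fold change -0.28, adjusted p = 0.134), and Trim56, which acts in DNA and RNA sensing, 44.7 ± 2.07 and 38.5 ± 6.02 CPM (-0.21, adjusted p = 0.209).

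Among the members with NHL repeats, Trim2, Trim3, Trim32 and Trim45, 0 of 4 were called by edgeR with the group alone in the model, DESeq2 or limma, and 1 had an unadjusted p under 0.05 in edgeR. Trim2 had 47, 47, 42 and 72 counts in new AML and 21, 36, 9 and 44 counts in aggressive AML (log2 fold change -0.82, SE 0.34, adjusted p = 0.109). The groups of Trim2 overlapped, and without aggressive AML replicate 4 its log2 fold change was -1.10 (adjusted p = 0.0463). Trim32 (-0.39, adjusted p = 0.237) and Trim3 (-0.36, adjusted p = 0.252) did not pass, nor did Trim45 (0.23, adjusted p = 0.229).

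The chromatin readers with a PHD finger and a bromodomain were Trim24, Trim33 and Trim66. Trim33, which limits SMAD4 in TGF-beta signalling, measured 82.7 ± 4.96 and 84.7 ± 0.688 CPM (0.04, adjusted p = 0.780), and Trim24 40.3 ± 3.27 and 42.3 ± 5.26 CPM (0.07, adjusted p = 0.705). The libraries of Trim66 did not overlap, from 7.24 to 9.04 CPM in new AML and from 9.07 to 15.3 CPM in aggressive AML, yet it did not pass the test (0.46, adjusted p = 0.108).

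Trim41 likewise did not overlap (92.8 to 94.6 CPM against 84.7 to 90.1 CPM) and was not called (-0.10, adjusted p = 0.357). Trim59 (-0.29, adjusted p = 0.0851) was called without aggressive AML replicate 4 (-0.42, adjusted p = 0.00624) and by limma with voom and quality weights on all libraries (-0.29, adjusted p = 0.0353), and Trim9, with 1 to 15 counts in new AML and 13 to 20 in aggressive AML, was called without new AML replicate 3 (main value 1.06, adjusted p = 0.147, and 1.599, adjusted p = 0.0474, without it) and likewise by voom with quality weights (1.497, adjusted p = 0.0343). The log2 fold changes of the other uncalled members, Trim7, Trim8, Trim13, Trim16, Trim17, Trim23, Trim37, Trim39, Trim46 and Trim68, lay between -0.19 and 0.41.

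**Figure D4:**
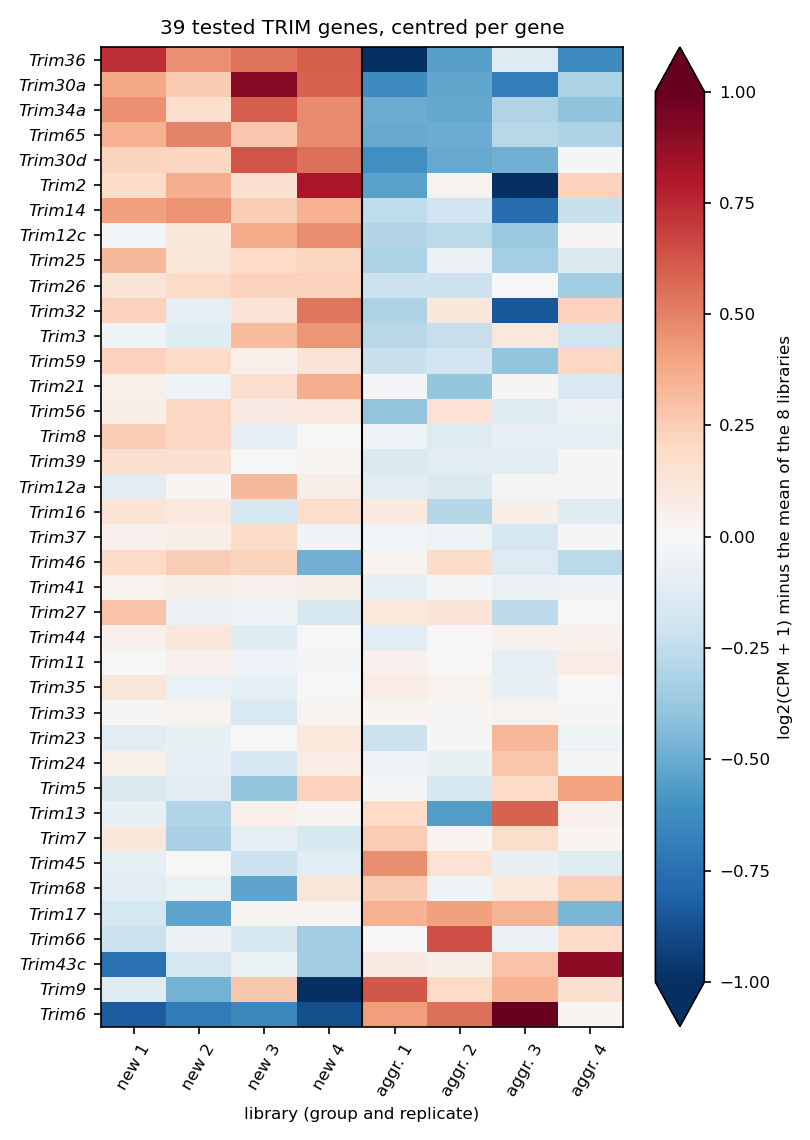
Level of the 39 tested TRIM genes in each of the 8 libraries as log2(CPM + 1) minus the mean of that gene over the libraries, ordered by fold change, with colours limited at 1 unit either way. The upper rows are red in the new AML columns and blue in the aggressive ones, the middle rows are pale, and aggressive AML replicate 3 holds the extreme values of Trim6, Trim2 and Trim32.

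The wider pathway was read from fixed lists. Of 22 tested E1 and E2 enzymes and ubiquitin genes, 4 were lower and 1 was higher, with a median log2 fold change of -0.01. That is 22.7% called, near the 18.4% of all tested genes. Uba7 and Ube2l6, the E1 and E2 enzymes that load ISG15 for ligases such as Trim25, were lower. Uba7 went from 120.4 to 92.2 CPM (-0.38, edgeR adjusted p = 0.00539) and Ube2l6 from 5.71 to 2.52 CPM (-1.18, adjusted p = 0.0404). The libraries of Ube2l6 overlapped, at 2.73 to 10.9 CPM in new AML and 1.93 to 3.19 CPM in aggressive AML. New AML replicate 3 was the highest. Ube2d1, an E2 enzyme that serves many RING ligases, was lower (30.8 ± 1.73 and 20.0 ± 1.61 CPM, -0.62, adjusted p = 0.00116), and Ube2e3 was higher (40.4 and 57.9 CPM, 0.51, adjusted p = 0.00562).

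Of 29 tested RING ligases outside the family, 6 were lower and 3 were higher, with a median of -0.14. That is 31.0% called, beside 28.2% of the TRIM genes and 18.4% of all tested genes. Rnf213, a giant interferon-induced ligase, was lower (326.6 ± 65.8 and 162.8 ± 25.9 CPM, -1.004, adjusted p = 0.000111), as were Dtx3l, the partner of Parp9 (88.9 and 64.0 CPM, -0.47, adjusted p = 0.00133), and Mib2, a ligase for Notch ligands (21.9 and 12.7 CPM, -0.78, adjusted p = 0.00339). Rnf125, which marks RIG-I for degradation, was higher (29.7 and 50.8 CPM, 0.77, adjusted p = 0.000587).

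Of 33 tested interferon response genes outside the family, 28 were lower and 0 were higher (84.8%, beside 18.4% of all tested genes). Of the list, 33 lay below 0 and 29 had an unadjusted p under 0.05 (edgeR). Its median of -1.04 was a larger median drop than the -0.42 of the interferon-linked TRIM genes. The study drew attention to interferon genes in these samples, so that this list is not independent evidence. Irf9, the DNA-binding part of the factor that binds the ISRE, went from 102.5 to 49.95 CPM (-1.04, adjusted p = 4.53e-06). Ifitm3, which blocks viral entry, went from 52.2 to 11.1 CPM (-2.23, adjusted p = 1.15e-05), Oas2, a sensor of double-stranded RNA, from 24.2 to 4.16 CPM (-2.52, adjusted p = 1.39e-05), and Parp14 from 68.0 to 24.9 CPM (-1.44, adjusted p = 2.97e-05). The mean log2(CPM + 1) of the list was 4.65, 4.49, 5.38 and 4.82 in new AML and 3.76, 3.85, 3.86 and 3.92 in aggressive AML, with new AML replicate 3 the highest. Among new AML libraries, that one was the highest for 3 of the 7 lower interferon-linked TRIM genes, Trim30a included, and the lowest for 1. It was the highest for 10 and the lowest for 15 of the 39 tested TRIM genes. Over all 12494 tested genes it was the highest for 3526 and the lowest for 3623.

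Of 3 tested TRIM proteins that carry another gene name, 2 were lower, beside 10.2% of all tested genes. Mefv, which encodes pyrin, measured 156.3 ± 10.2 and 95.3 ± 6.19 CPM (-0.71, adjusted p = 2.48e-05), and Pml, the organizer of PML nuclear bodies, 72.6 ± 6.69 and 59.3 ± 5.43 CPM (-0.29, adjusted p = 0.0459).

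**Figure D5:**
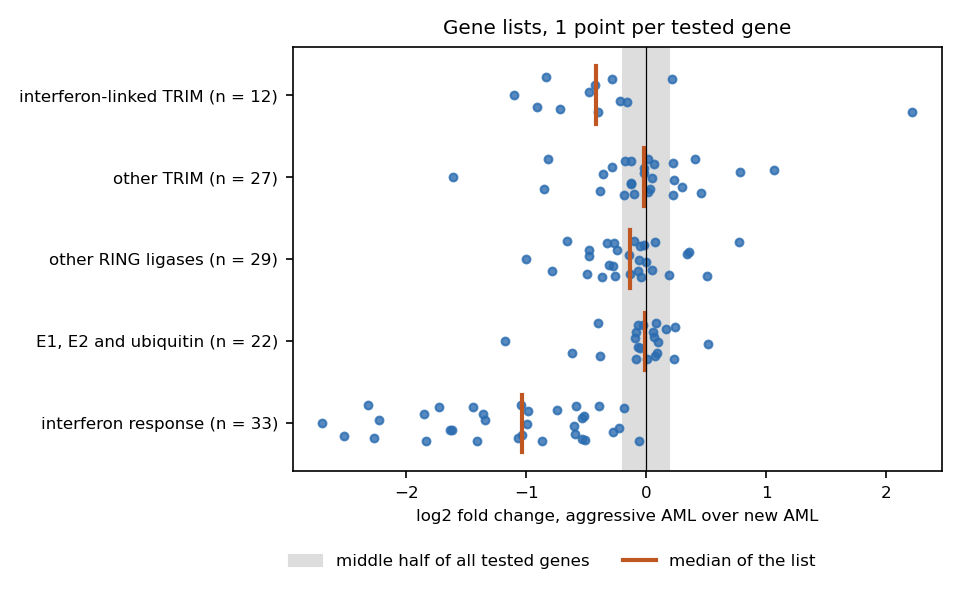
Log2 fold change of every tested gene in the interferon-linked TRIM genes, the other TRIM genes, other RING ligases, the E1, E2 and ubiquitin genes and the interferon response list, aggressive AML over new AML, 1 point per gene. Orange lines mark list medians (-0.42, -0.01, -0.14, -0.01 and -1.04), and the grey band holds the middle 50% of all tested genes.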

How the data were processed

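RNA of sorted GFP+ MLL-AF9 leukemia cells from mouse bone marrow was profiled in 4 new AML and 4 aggressive AML libraries, grouped by their labels. The authors selected polyadenylated RNA, sequenced paired ends, aligned the reads to mm10 with HISAT2, counted them per gene with Rsubread and removed genes under 1 CPM. Although the name of the deposited table mentions CPM, its values are whole-number counts whose totals differ between libraries, and it was used as raw counts. The annotation and strand setting of the counting are not given in the sources used here. Columns of all 8 libraries were used, and 0 rows lacked a gene name.

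Library sizes were scaled with TMM (trimmed mean of M values) and counts tested with edgeR's quasi-likelihood test (version 4.0.16, R 4.3.3) over the 12494 genes that reached 1 CPM in 4 or more libraries, two-sided, with Benjamini-Hochberg adjustment at 0.05. The study's own test was limma, which is given as an alternative (version 3.58.1), as are DESeq2 (version 1.42.0), DESeq2 size factors, voom with quality weights, no filter, a replicate block and leaving out each library. The SE of a log2 fold change is its size divided by the square root of F. The test code was checked on simulated data. Levels per length used the merged exon length of GENCODE M21, and shared sequence was counted as 50-base words found in transcripts of another gene. Sequences are from RefSeq, and 29 members had a promoter window.

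The members and gene lists were chosen with earlier results of these data known. Every TRIM row is accounted for. Full values are given for those with an adjusted p under 0.05 and for the 4 uncalled rows of highest mean CPM, and of each pathway list the called genes with the 4 smallest adjusted p are named. Other genes and libraries named were chosen after their values were seen. Replicates of each pair differed by more than sampling noise.

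One further result is not reported here.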

Additional observations from a re-analysis of the deposited data

Results flagged for a closer look

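Within each group of 4 libraries, the gap of the most extreme library to the nearest other one was compared with Dixon's 95% critical value. Of 80 groups tested, 6 passed, where chance alone flags about 1 in 20 groups. Of these, 3 concern aggressive AML replicate 3. That library held 18.7 CPM of Trim6 beside 3.75 to 5.89 CPM in the other aggressive libraries, 50.7 CPM of Trim14 beside 72.5 to 75.3 CPM, and 50.1 CPM of Trim24 beside 38.99 to 40.5 CPM. The log2 fold change of Trim14 was -0.60 without it, and that of Trim6 was 1.48.

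The other 3 were Trim17 in aggressive AML replicate 4, at 3.30 CPM beside 6.48 to 6.83 CPM, Trim46 in new AML replicate 4, at 5.57 CPM beside 9.54 to 9.87 CPM, and Trim33 in new AML replicate 3, at 75.3 CPM beside 84.4 to 86.0 CPM. None of these 3 genes was called. The cause of these values was not tested.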

How the results depend on the processing

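Of the 11 called TRIM genes, 10 kept direction and call under all 14 alternatives, the exception being Trim43c, whose call was lost without new AML replicate 1, 2 or 4 or aggressive AML replicate 4. Among the 10, Trim12c and Trim26 came close to the threshold, with largest edgeR adjusted p of 0.0498 and 0.0436 over the alternatives. The number of lower TRIM genes was 9 to 11 over the alternatives. The number of higher genes was 2 in the main test, 3 with voom and quality weights, and 1 to 3 with 1 library left out, being 1 without each of the 4 libraries just named. The median log2 fold change of -0.13 was -0.10 with voom and quality weights and -0.161 to -0.0879 with 1 library left out. Uncalled genes near 0 changed sign: Trim27 was 0.0551 with voom and quality weights and -0.0737 to 0.0871 with 1 library left out, and over the same libraries Trim44 was -0.0555 to 0.0205, Trim11 -0.00726 to 0.0463 and Trim35 -0.0130 to 0.0604. Over all genes, 2296 calls became 1534 to 2381 with 1 library left out, the fewest without new AML replicate 2, and 2295 to 3122 under the other alternatives, the most with voom and quality weights.

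The labels do not say whether the replicate numbers pair the libraries. The correlation of same-numbered deviations was 0.0967, -0.0399, -0.0654 and 0.204. New AML replicates 1 and 4 correlated best with their own number, and replicates 2 and 3 did not. With so few libraries these values cannot decide whether the numbers pair them. With the replicate block, 10 TRIM genes were lower, 2 were higher, the median was -0.13, Trim2 was called (-0.90, edgeR adjusted p = 0.0425) and 2367 genes were called in all.

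Depth limits the low members: 1 count is worth over 0.1 CPM, and 11 of the 40 TRIM genes, Trim30c included, lie under 10 CPM. Reads shared among copies and overlapping genes limit Trim34a, Trim12c, Trim5, Trim14 and Trim43c.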

Other observations

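Within the chromosome 7 group of TRIM genes 2 gene models also have rows. Gm15133, between Trim12a and Trim12c, measured 1.64 ± 0.396 CPM (SD, n = 4) in new AML and 2.43 ± 1.30 CPM in aggressive AML (log2 fold change 0.56, edgeR adjusted p = 0.335). Gm38525, between Trim12c and Trim30c, measured 1.70 ± 0.614 and 0.483 ± 0.257 CPM and was not tested, being under the filter on low counts. Both were chosen after their values were seen.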
